A study of Mus musculus with 12 samples.

Results

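HuR, the protein encoded by *Elavl1*, and 7 further proteins that bind AU-rich elements in mRNA were followed across livers of 4 groups of male mice. The genes were taken by name from the deposited count tables: *Elavl1*, *Zfp36*, *Zfp36l1*, *Zfp36l2*, *Hnrnpd*, *Khsrp*, *Tia1* and *Tial1*. All 8 were listed in both tables, which together list 23391 genes, and all 8 passed the filter on low counts. Each group held 3 livers with 1 RNA-seq library each, and library totals ran from 30071731 to 35949203 counted reads. According to the labels all 12 mice were C57BL/6N males with a floxed *Elavl1* allele on both chromosomes (HuR flox/flox), aged 4 to 6 months. Mice labelled HuRHep-/- had received AAV8-Tbg-Cre, an adeno-associated virus that expresses Cre recombinase from a hepatocyte promoter, and mice labelled WT had received the same kind of virus without Cre (AAV8-Tbg-null). The WT controls therefore also carried the floxed allele and had also received a virus. Livers were taken on normal chow or after 16 weeks of an HFCF diet, with 40 kcal% fat, 2% cholesterol and 20 kcal% fructose. The study's methods describe a different model, a cross of the floxed mice with albumin-Cre mice, and mice younger than the labels state. Gene counts cannot tell which of these models was used. The deletion is meant for hepatocytes only, so the macrophages, endothelial cells, stellate cells and other cells of the tissue are meant to keep the gene. Deletion was not measured by cell type here. The replicate numbers in the labels were not tied to an animal, so that the p-values below measure the spread between these libraries.

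AU-rich elements are stretches of adenine and uracil in the 3′ untranslated region (3′ UTR) that set how long an mRNA lasts, and many mRNAs of cytokines, early response genes and cell cycle regulators carry them. HuR usually protects such mRNAs and promotes their translation. Tristetraprolin (*Zfp36*) and its relatives (*Zfp36l1*, *Zfp36l2*) recruit the enzymes that shorten the poly(A) tail, KSRP (*Khsrp*) and AUF1 (*Hnrnpd*) mostly favour decay as well, and TIA-1 (*Tia1*) and TIAR (*Tial1*) hold back translation, above all in stressed cells.

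The transcript of the targeted gene did not follow the labels. *Elavl1* (ENSMUSG00000040028, GRCm38 chromosome 8, 4285382 to 4325413, minus strand) had raw counts of 938, 876 and 948 in the chow livers labelled WT and 1475, 1265 and 1261 in the chow livers labelled HuRHep-/-. On HFCF the raw counts were 904, 791 and 849 in livers labelled WT and 1299, 1242 and 1271 in livers labelled HuRHep-/-. In both diets every liver labelled HuRHep-/- lay above every liver labelled WT, so the directions given below for the genotype rest on labels that this gene goes against. The study reports depletion by quantitative PCR in its acetaminophen experiments, in mice that it describes as younger and of an albumin-Cre cross. It describes no such check of the livers analysed here. The check by counts has a limit of its own. The authors counted reads over the whole gene, and of the 5743 bases of the longest *Elavl1* transcript 79.1% lie in the last of its 6 exons. The study's primers for *HuR* quantitative PCR, read from its primer list and matched here to GENCODE transcripts, sit in the coding sequence and span 135 bases of that transcript. They are shown because they mark the stretch by which the transcript was checked in the mice of those experiments. The counts of the livers analysed here cannot be separated by exon. The primers read, 5′ to 3′ and in lower case throughout:

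*Elavl1* forward primer, exon 2 (chr8:4311708-4311729): ggatgacattgggagaacgaat
*Elavl1* reverse primer, across the junction of exons 2 and 3: tgtcctgctactttatcccgaa

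Levels are given as counts per 1000000 (CPM) after TMM scaling, which assumes that most genes do not change, and log2 CPM was tested with limma. A gene was called at an adjusted p (Benjamini-Hochberg over all genes tested) of at most 0.05. Normalized *Elavl1* levels were 30.4 ± 0.947 CPM in chow livers labelled WT and 40.2 ± 2.19 CPM in those labelled HuRHep-/- (SD, n = 3 each). They were 25.0 ± 1.72 CPM and 32.9 ± 1.12 CPM, respectively, on HFCF (SD, n = 3 each). The order of the groups was therefore HFCF WT, chow WT, HFCF HuRHep-/- and chow HuRHep-/-, from low to high, and no 2 neighbours overlapped. Over both diets *Elavl1* was 1.32-fold higher in livers labelled HuRHep-/- (95% interval 1.23 to 1.42, limma adjusted p = 0.000247), and the change was called in each of the 12 fits that left out 1 library (adjusted p between 0.000344 and 0.00104). Within chow the change was 1.33-fold (95% interval 1.19 to 1.48) and within HFCF 1.30-fold (1.16 to 1.47). Without 1 library at a time the log2 fold change stayed between 0.36 and 0.44 in chow and between 0.36 and 0.45 in HFCF, but the call was kept in 2 of 6 and 1 of 6 fits. The 3 fits that kept it had 535, 503 and 1280 genes called among all tested, and those that lost it had 9 to 136 in chow and 28 to 707 in HFCF. In chow the limma adjusted p was 0.0725, 0.0738, 0.0816 and 0.105 without WT replicate 1, WT replicate 3, HuRHep-/- replicate 1 and HuRHep-/- replicate 2, respectively. In HFCF the limma adjusted p was 0.0942 and 0.0534 without WT replicates 1 and 2, and 0.121, 0.106 and 0.0943 without HuRHep-/- replicates 1, 2 and 3.

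Of the 8 genes, *Elavl1* alone was called in chow (4.23% of the 13526 genes tested were called, 2.29% higher and 1.94% lower) and in HFCF (6.79% of 14295, 2.85% higher and 3.95% lower). Over both diets 2 of 8 were called, *Elavl1* higher and *Tial1* lower, beside 17.4% of the 14535 genes tested, 8.12% higher and 9.32% lower. These shares depend on scaling: the higher genes made up 46.5% of the calls over both diets, but 81.4% when libraries were scaled by total counts, and 54.2% against 73.0% in chow and 41.9% against 81.3% in HFCF. With TMM scaling the other 6 were not called for genotype in either diet or over both, but with total counts *Zfp36*, *Hnrnpd* and *Khsrp* were called higher over both diets, which made 5 of 8. No change of any of the 8 genes reached 1.5-fold in a genotype comparison, where 2.3% of all genes tested were called with at least 1.5-fold in chow, 3.71% in HFCF and 5.08% over both diets, or in a diet comparison, where 9.92% were in livers labelled WT and 19.6% in those labelled HuRHep-/-. The 95% intervals state what these comparisons could not tell from no change: over both diets they ran from 0.947 to 1.16-fold for *Hnrnpd* and from 0.985 to 1.17-fold for *Khsrp*, but from 0.797 to 1.33-fold for *Zfp36l1*.

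**Figure D1:**
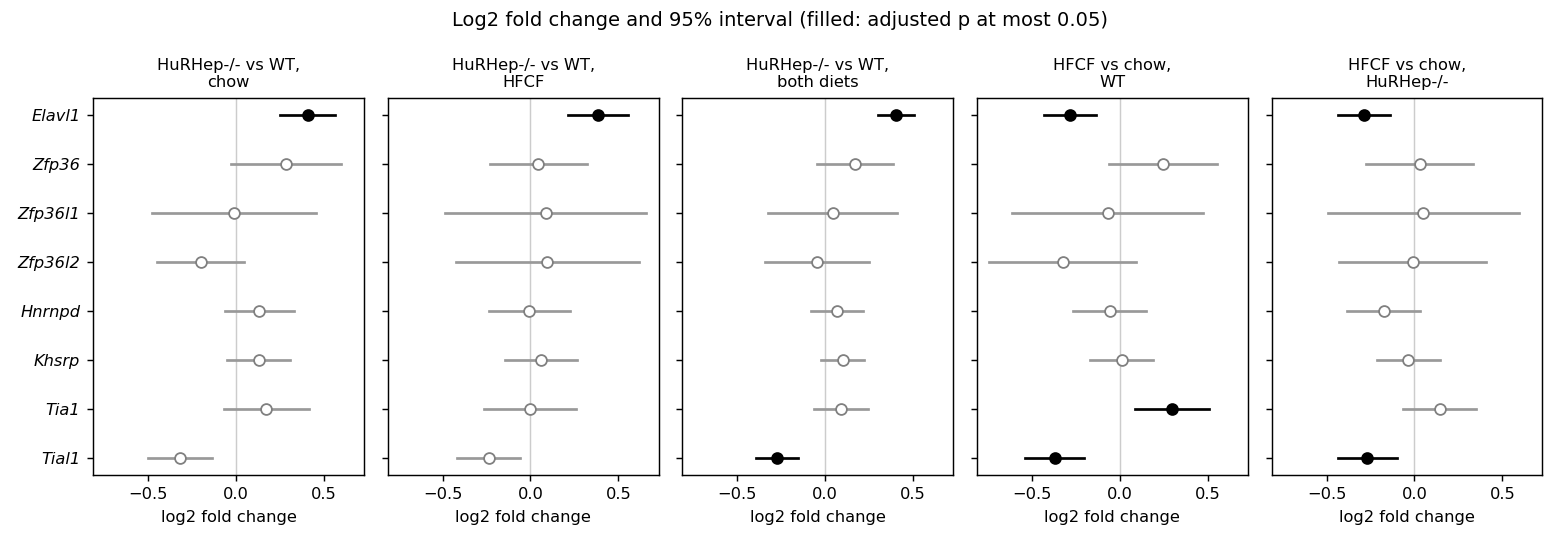
Log2 fold change (horizontal axis) of the 8 genes in 5 comparisons, with the 95% interval from limma as a line. Filled symbols have an adjusted p of at most 0.05. Genotypes are as labelled. *Elavl1* is filled in all 5 panels, on the positive side for genotype and on the negative side for diet, and *Tial1* is filled on the negative side over both diets and in both diet panels. Scaled by total counts, the diet values of *Elavl1* and that of *Tial1* in livers labelled HuRHep-/- would not be filled.

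Per length of sequence, the mean levels of the transcripts of the destabilising proteins and of *Tial1* stood above that of *Elavl1*. In CPM per kilobase of merged exons, *Zfp36* had a mean level of 51.7, *Zfp36l1* of 27.5, *Zfp36l2* of 12.9 and *Khsrp* of 8.19 over the 12 livers. *Hnrnpd* followed at 5.84 and *Tial1* at 5.16, *Elavl1* was the seventh at 3.10, and *Tia1* was the lowest at 0.357 CPM per kilobase. Each gene lay above the next in all 12 livers, except that *Hnrnpd* lay above *Tial1* in 10 of 12. The scale matters for genes with many annotated exons. By the length of the longest transcript, *Elavl1* had a mean of 5.60 and *Tia1* of 1.25 CPM per kilobase. These means kept both in the same places of the order, and *Tial1* (8.01) moved above *Hnrnpd* (6.31). The merged exons of *Elavl1* span 10363 bases and its longest transcript 5743 bases. The order within single livers was taken on merged exons only. The neuronal relatives of *Elavl1* were close to absent: *Elavl2*, *Elavl3* and *Elavl4* had 8, 20 and 4 counts in all over the libraries that list them and were not tested.

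**Figure D2:**
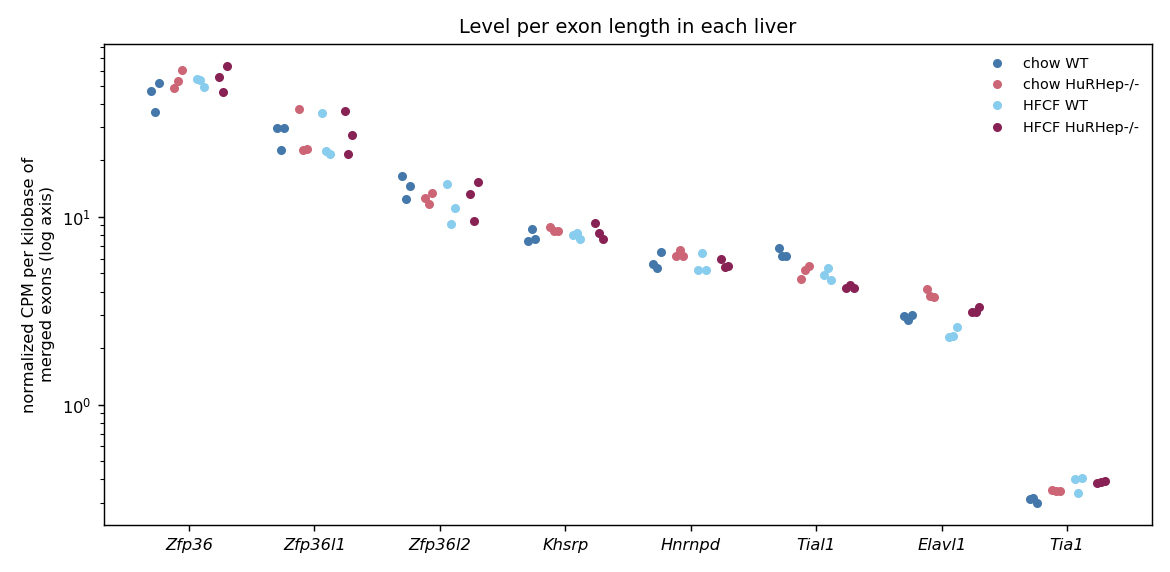
Level of each gene in each of the 12 livers, in normalized CPM per kilobase of merged exons on a log axis, with colours for the 4 labelled groups. *Zfp36* lies highest and *Tia1* lowest in every liver, and *Elavl1* is seventh of the 8 genes.

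The mRNAs of several of these proteins carry AU-rich elements themselves. The nonamer TTATTTATT, the binding word of the tristetraprolin family, was searched on the sense strand of the 3′ UTR of the longest coding GENCODE transcript, where overlapping matches were counted and each match also holds the shorter word ATTTA. It was present in *Elavl1* (8 matches), *Zfp36*, *Zfp36l1* and *Zfp36l2* (1 match each), and in none of the 3′ UTRs of *Hnrnpd*, *Khsrp*, *Tia1* and *Tial1*. Among 13318 tested genes with a 3′ UTR, 7.79% held the nonamer and 1.66% held 2 or more. ATTTA occurred 17 times in *Elavl1*, 10 times in *Hnrnpd*, 9 times in *Zfp36l1*, 8 times in *Tia1*, 5 times in *Zfp36l2*, 3 times in *Zfp36* and *Tial1*, and once in *Khsrp*, and 68.7% of the genes held it. A match is a word in the reference sequence and not a measured binding site. The sites below are shown because they are the words through which these proteins could meet each other's mRNAs. The nonamer is in capitals, the sequence is written 5′ to 3′ as in the mRNA with T for U, and coordinates are GRCm38, minus strand:

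*Elavl1* (chr8:4285790-4285814): catgaaaaTTATTTATTtatttatt
*Zfp36* (chr7:28376953-28376977): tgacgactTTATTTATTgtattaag
*Zfp36l1* (chr12:80108169-80108193): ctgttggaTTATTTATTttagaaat
*Zfp36l2* (chr17:84184916-84184940): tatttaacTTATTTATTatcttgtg

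The *Elavl1* site is the first of the 8, which start between bases 3794 and 3840 after the stop codon in a 3′ UTR of 4218 bases.

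The calls of genes with the nonamer were set beside those of other genes. Of the 1037 tested genes with it, 16.8% were called for genotype over both diets, 72 higher and 102 lower, beside 17.9% of all tested genes with a 3′ UTR. Their median log2 fold change was 0.0046, and that of all genes with a 3′ UTR was 0.017. Genes with the nonamer had longer 3′ UTRs (median 2365 bases, against 1115), and among 3′ UTRs of 1000 to under 3000 bases 16% of genes with the nonamer and 17% without it were called. In chow the share was 4.42% of 973 genes with the nonamer beside 4.18%, and in HFCF 6.13% of 1027 beside 6.98%. Among 3′ UTRs of 1000 to under 3000 bases it was 4.08% with the nonamer and 4.08% without it in chow. In HFCF it was 5.36% and 7.26%, respectively. With diet in livers labelled WT 9.84% of genes with the nonamer were higher and 14.1% lower, beside 11.7% and 13.3% of all genes with a 3′ UTR, and in those labelled HuRHep-/- 18.3% were higher and 23% lower, beside 20.7% and 20%. Genes with 2 or more ATTTA words were set beside genes with none. For genotype in HFCF 2.23% of them were higher and 4.9% lower, against 3.85% and 3.08% of genes with none, and with diet in livers labelled HuRHep-/- 18.2% were higher and 24.6% lower, against 23.6% and 14.6%. In chow the shares were 2.17% and 1.81%, against 2.29% and 2.22%. The 3′ UTRs of these sets differ in length (medians of 2045 and 395 bases among genes tested over both diets), and the part of length was not tested. These are counts, with no test of the difference.

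*Tial1* was lower in livers labelled HuRHep-/-. *Tial1* (ENSMUSG00000030846, chromosome 7, 128439777 to 128461717) encodes TIAR, a translational silencer that gathers in stress granules. Its levels in chow were 47.1, 42.5 and 42.6 CPM in livers labelled WT and 32.3, 35.8 and 37.6 CPM in those labelled HuRHep-/-. In HFCF they were 33.7, 37.0 and 31.7 CPM in livers labelled WT and 28.9, 29.8 and 28.9 CPM in those labelled HuRHep-/-. The groups did not overlap in either diet (in chow *Elavl1*, *Tia1* and *Tial1* did not overlap, beside 29.5% of all genes tested, and in HFCF *Elavl1* and *Tial1* did not, beside 36.8%). The same 2 genes were apart within both diets in the same direction, as were 11.2% of all genes tested. Over both diets *Tial1* was 0.827-fold (95% interval 0.761 to 0.899, limma adjusted p = 0.00637). This call was kept in all 12 fits that left out 1 library, with adjusted p between 0.00491 and 0.0164. Within chow (log2 fold change -0.32, standard error 0.080, limma adjusted p = 0.0675) and within HFCF (-0.24, standard error 0.076, adjusted p = 0.0956) it was not called. With total counts these values were smaller, at -0.16 over both diets (limma adjusted p = 0.0278), -0.24 in chow (adjusted p = 0.0841) and -0.087 in HFCF (adjusted p = 0.352). None of the words of 31 bases of its longest transcript occurs in a transcript of another gene.

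*Tia1* (ENSMUSG00000071337, chromosome 6, 86404219 to 86433405) encodes TIA-1, the close relative of TIAR, and was the scarcest of the 8, with 144 to 240 raw counts. Its chow levels were 4.94, 5.02 and 4.71 CPM in livers labelled WT and 5.54, 5.48 and 5.45 CPM in those labelled HuRHep-/-. The groups did not overlap, but the difference was not called (log2 fold change 0.17, standard error 0.105, limma adjusted p = 0.359). In HFCF the levels were 6.34, 5.34 and 6.42 CPM in livers labelled WT and 5.99, 6.07 and 6.14 CPM in those labelled HuRHep-/-, with overlap. In 3 of the 4 groups the spread of *Tia1* between livers was smaller than its counting error alone, as in chow livers labelled HuRHep-/-, where the coefficient of variation was 0.833% and the counting error 7.42%. *Tia1* also shares 7.26% of its 31-base words with other transcripts, mainly with *Gm44790*, which overlaps it on the same strand. Across the 12 livers *Tia1* and *Tial1* had a Pearson r of -0.87 in log2 CPM, the lowest among the 28 pairs of the 8 genes, given as a description because the livers share diets and genotypes.

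*Zfp36* (ENSMUSG00000044786, chromosome 7, 28376784 to 28380253), the gene of tristetraprolin, was the most abundant of the 8. In chow its levels were 162, 125 and 179 CPM in livers labelled WT and 169, 183 and 209 CPM in livers labelled HuRHep-/-. In HFCF they were 189, 187 and 171 CPM and 193, 161 and 221 CPM, respectively. The groups overlapped in both diets, and the log2 fold change over both diets was 0.17 (standard error 0.101, limma adjusted p = 0.263), or 0.28 with total counts, where it was called (adjusted p = 0.0453).

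*Zfp36l1* and *Zfp36l2*, the relatives of tristetraprolin, varied widely between livers of the same group. Group means of *Zfp36l1* lay between 79.6 and 85.1 CPM, with SDs of 12.4 to 25.4 CPM (n = 3 each). *Zfp36l1* reached 112, 107 and 109 CPM in HuRHep-/- replicate 1 on chow, WT replicate 1 on HFCF and HuRHep-/- replicate 1 on HFCF, respectively, while the other livers of these 3 groups lay between 64.6 and 81.5 CPM. Chow livers labelled WT had 89.2, 67.7 and 89.0 CPM. The coefficient of variation of *Zfp36l1* within groups was 15.1% to 30.7%, and its counting error 1.74% to 2.01%. *Zfp36l2* lay between 32.3 and 58.5 CPM, with a coefficient of variation within groups of 6.56% to 25.2%. Their log2 fold changes for genotype over both diets were 0.04 (standard error 0.170, limma adjusted p = 0.888) and -0.05 (standard error 0.137, adjusted p = 0.844). Immediate early genes, which answer within minutes to stress and handling and to which *Zfp36* itself belongs, were looked at beside them. Of 28 tested in that list, 2 were called for genotype over both diets, both higher (7.14%, beside 17.4% of all genes, and 4 higher with total counts). The summed CPM of the list without *Zfp36* ran from 350 to 509 in chow WT, 414 to 454 in chow HuRHep-/-, 406 to 734 in HFCF WT and 598 to 731 in HFCF HuRHep-/-. Their part in the levels of the family was not tested.

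*Hnrnpd* (AUF1) and *Khsrp* (KSRP) were not called in any of the 5 comparisons with TMM scaling. *Hnrnpd* lay between 38.1 and 48.7 CPM and *Khsrp* between 32.1 and 40.3 CPM in all 12 livers. Their log2 fold changes over both diets were 0.07 (standard error 0.068, limma adjusted p = 0.519) and 0.10 (standard error 0.057, adjusted p = 0.236). With total counts they were 0.18 and 0.21 and were called (limma adjusted p = 0.0489 and 0.0343). *Khsrp* shares 7.65% of its 31-base words with other transcripts, mainly with *Gm8602*, and *Zfp36l1* shares 6.96%, mainly with *Zfp36l1-ps*, so a part of their counts is uncertain. *Gm26669* covers 4967 bases of *Zfp36l1* on the opposite strand, and the study's methods state alignment by strand for the chow livers.

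**Figure D3:**
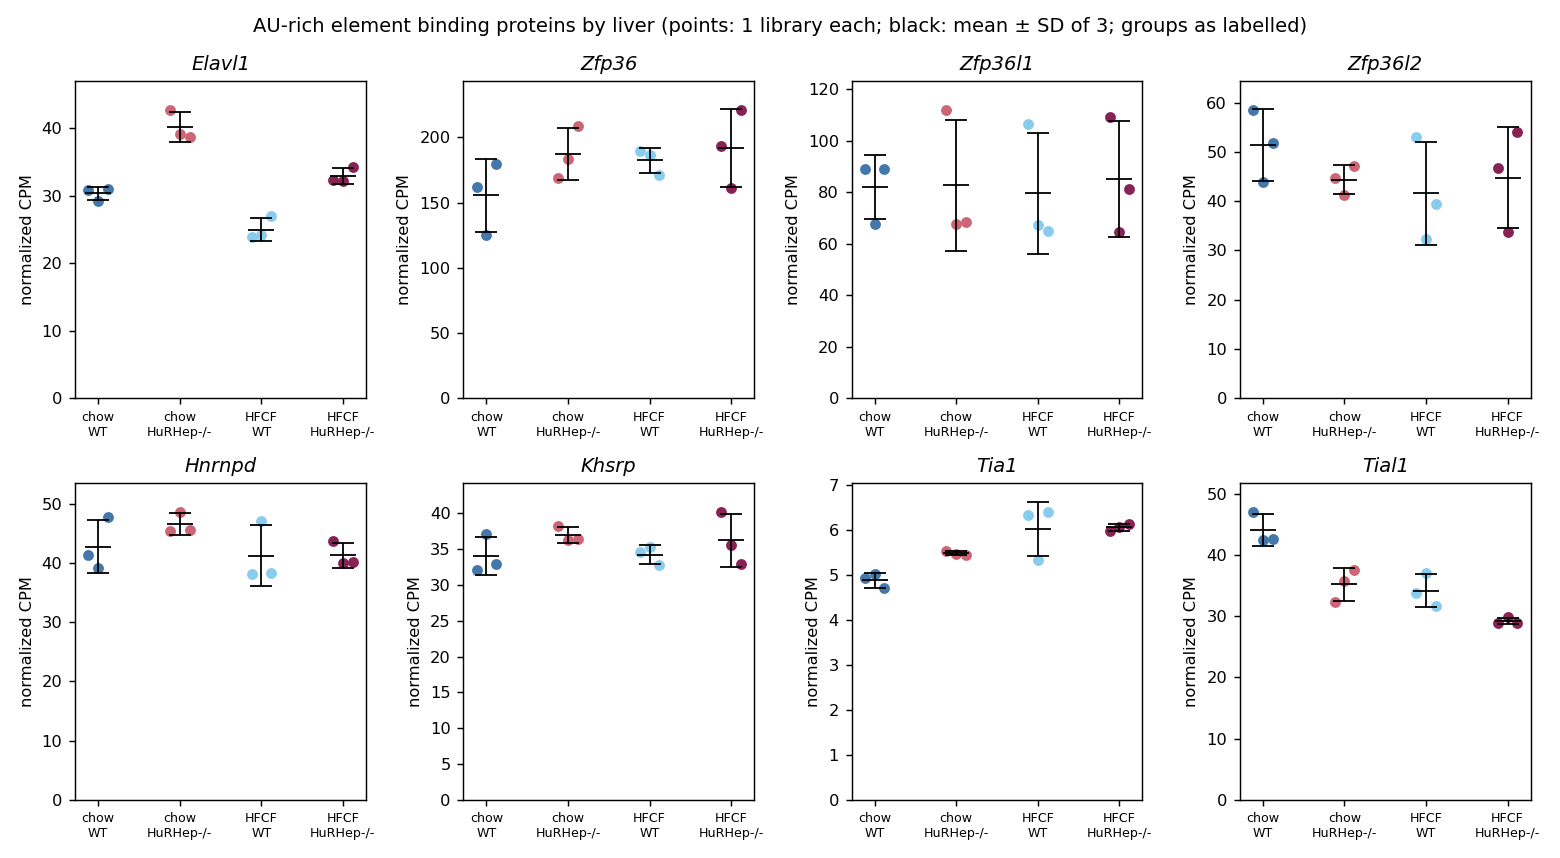
Normalized CPM of each gene in each liver (points) with the mean and SD of 3 livers (black), from an axis that starts at 0. *Elavl1* is higher in the livers labelled HuRHep-/- than in those labelled WT on the same diet, *Tial1* is lower, and in *Zfp36l1* 1 liver of 3 stands well above the others in 3 of the 4 groups.

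Diet was compared within each labelled genotype. Diet and count table cannot be told apart here, since the chow and HFCF livers were deposited in separate tables and the labels do not say whether they were prepared together. In livers labelled WT, 3 of 8 genes were called (24.1% of all genes tested were called, 11.3% higher and 12.8% lower): *Elavl1* was 0.822-fold (95% interval 0.742 to 0.910, limma adjusted p = 0.012), *Tial1* 0.774-fold (0.688 to 0.870, adjusted p = 0.00625) and *Tia1* 1.23-fold (1.06 to 1.42, adjusted p = 0.0417) on HFCF. In livers labelled HuRHep-/-, 2 of 8 were called (38.9% of all genes tested were called, 19.7% higher and 19.1% lower): *Elavl1* was 0.819-fold (0.739 to 0.907, adjusted p = 0.0067) and *Tial1* 0.830-fold (0.739 to 0.933, adjusted p = 0.0178). The 3 called genes were apart without overlap in livers labelled WT, as were 37.6% of all genes tested, and *Elavl1*, *Tial1*, *Tia1* and *Hnrnpd* were apart in those labelled HuRHep-/-, as were 54.6%. The call of *Tia1* in livers labelled WT held in 1 of 12 fits that left out a library, without HFCF WT replicate 2 (limma adjusted p = 0.012), and the adjusted p ran from 0.0504 to 0.139 in the others. *Tial1* in livers labelled HuRHep-/- was no longer called without chow HuRHep-/- replicate 2 (adjusted p = 0.0531), chow HuRHep-/- replicate 3 (0.0703) or HFCF HuRHep-/- replicate 1 (0.0559).

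The diet changes of *Elavl1* depend on how libraries are scaled. The raw counts of *Elavl1* overlapped between the diets, and TMM factors went from a mean of 0.904 in chow WT to 1.12 in HFCF HuRHep-/-. Scaled by total counts alone, the log2 fold change of *Elavl1* with HFCF was -0.10 in livers labelled WT (limma adjusted p = 0.359) and -0.06 in those labelled HuRHep-/- (adjusted p = 0.585), but the median of all genes tested then moved to 0.19 and 0.23 and the higher genes from 46.8% to 82.5% and from 50.8% to 84.4% of the calls. A scaling moves all genes of a library alike, so the distance of *Elavl1* from that median, -0.29 in both genotypes, is nearly fixed by construction and is no further support. *Tial1* scaled by total counts gave -0.19 (adjusted p = 0.0354) and -0.04 (adjusted p = 0.622), and *Tia1* gave 0.48 (adjusted p = 0.0117) and 0.37 (adjusted p = 0.0237). *Zfp36* in livers labelled WT went from 0.25 (adjusted p = 0.221) with TMM to 0.43 (adjusted p = 0.031), so with total counts the 3 genes called there were *Tial1*, *Tia1* and *Zfp36*, and in livers labelled HuRHep-/- *Tia1* was the 1 called. For genotype over both diets, *Elavl1* and *Tial1* were called under all 4 scalings.

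**Figure D4:**
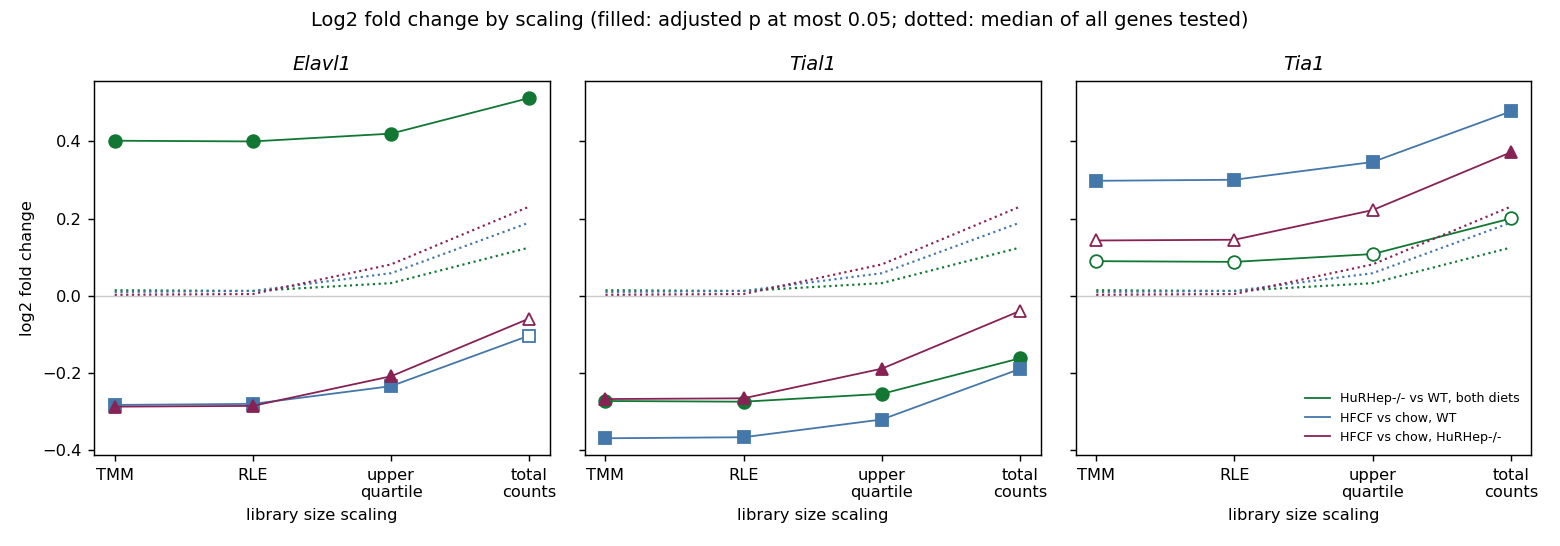
Log2 fold change of *Elavl1*, *Tial1* and *Tia1* (vertical axis) under 4 ways to scale library size (horizontal axis), for genotype over both diets and for diet in each labelled genotype. Filled symbols have an adjusted p of at most 0.05, and dotted lines give the median of all genes tested. With total counts the dotted lines rise to between 0.12 and 0.23 and all 3 genes rise with them.

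None of the 8 genes was called for a genotype change that differed between the diets, by the interaction term in limma, and their lowest unadjusted p was 0.265 (0% of 14535 genes were called, 2086, or 14.4%, had an unadjusted p under 0.05, and 1 gene was called with voom weights, 1 without a filter, 11 with total counts, and 0 to 41 when 1 library was left out, the 41 without HFCF WT replicate 3). For *Elavl1* the difference between the log2 fold changes in HFCF and in chow was -0.0045 (95% interval -0.21 to 0.20). The interval was widest for *Zfp36l1*, at -0.65 to 0.89.

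Summed marker levels of several cell types differed between the labelled groups, by diet as well as by genotype. The summed CPM of 16 hepatocyte genes ran from 128288 to 154794 in chow WT, 105442 to 118048 in chow HuRHep-/-, 90167 to 105550 in HFCF WT and 81504 to 87587 in HFCF HuRHep-/-, and no gene of these marker lists that was listed was at 0 in all 12 livers. The hepatocyte sum is led by *Alb*, the albumin gene, with a mean of 74081 CPM in chow WT, which was not called for genotype over both diets (-0.30, limma adjusted p = 0.308). Of the 16 genes 11 had negative and 5 positive log2 fold changes, and 1, *Cyp2e1*, was called, lower (-0.52, adjusted p = 0.0162). The mean level of *Tial1* followed the same order of groups. Kupffer cell genes were summed at 228 to 297, 300.1 to 448, 328 to 555 and 517 to 777 CPM in the same groups, and 7 of 12 were called higher for genotype over both diets (58.3%, beside 8.12% of all genes called higher). For markers of recruited macrophages the call was 4 of 10 higher, for endothelial cells 1 of 11 higher, for cholangiocytes 1 of 7 higher, for lymphocytes 1 of 16 higher, and for stellate cells 0 of 12 and neutrophils 0 of 3 by limma, with 1 and 2 at an unadjusted p under 0.05. With total counts 10 Kupffer, 6 recruited macrophage, 2 endothelial, 3 cholangiocyte, 1 lymphocyte, 1 neutrophil and 0 stellate cell genes were higher, and 1 hepatocyte gene was higher and 1 lower. In the order chow WT, chow HuRHep-/-, HFCF WT and HFCF HuRHep-/-, the sums were 68.5 to 107, 101 to 167, 68.3 to 216 and 272 to 439 CPM for recruited macrophages. They were 49.0 to 94.1, 59.9 to 95.6, 55.7 to 105 and 153 to 267 CPM for cholangiocytes, and 272 to 311, 212 to 317, 305 to 587 and 565 to 678 CPM for stellate cells. *Spp1*, the osteopontin gene, is in both the recruited macrophage and the cholangiocyte list. Its means of 44.7, 55.1, 61.4 and 158 CPM make up most of the cholangiocyte sum and a large part of the recruited macrophage sum. These 2 sums are therefore not independent of each other. In the same order the sums were 187 to 228, 179 to 217, 206 to 243 and 247 to 260 CPM for endothelial cells, 14.6 to 30.01, 28.2 to 33.3, 21.4 to 33.4 and 33.8 to 43.0 CPM for lymphocytes, and 1.99 to 2.68, 2.19 to 3.62, 2.32 to 3.50 and 4.69 to 5.71 CPM for neutrophils. The sums of recruited macrophages, cholangiocytes, endothelial cells, lymphocytes and neutrophils were thus highest in HFCF HuRHep-/-, without overlap with the other groups, whereas the Kupffer and stellate sums of the HFCF groups overlapped. With diet, 10 of 16 hepatocyte genes were called lower in each labelled genotype. In livers labelled WT 4 of 12 Kupffer, 4 of 10 recruited macrophage, 4 of 12 stellate and 0 of 7 cholangiocyte genes were called higher on HFCF by limma (the last with 0 at an unadjusted p under 0.05), beside 11.3% of all genes. In those labelled HuRHep-/- 7, 9, 12 and 6 were, beside 19.7%. With total counts these became 9, 5, 4 and 0, and 10, 10, 12 and 6, and the hepatocyte calls 8 and 7. In whole liver, fewer cells of a type and less RNA per cell cannot be told apart, and the part of these cells in the levels of the 8 genes was not tested.

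Beyond the 8 genes, proteins that bind, move or modify them were examined as a list of 31 genes, among them kinases, nuclear transport receptors, 14-3-3 proteins, ubiquitin ligases, HuR ligands of the pp32 kind, a methyltransferase, a phosphatase and stress granule proteins. Over both diets 2 were higher and 2 lower (12.9% of 31, beside 17.4% of all genes, and 9 higher and 2 lower with total counts), and the median of the list was 0.05 against 0.01 for all genes. *Tnpo2*, which encodes transportin-2, an import receptor that carries HuR into the nucleus, had the largest change. Its levels were 28.5, 25.3 and 23.7 CPM in chow livers labelled WT and 14.5, 15.6 and 15.3 CPM in those labelled HuRHep-/-. On HFCF they were 27.0, 30.1 and 28.3 CPM and 13.0, 13.8 and 15.5 CPM, respectively. All livers labelled HuRHep-/- thus lay below all livers labelled WT, and the log2 fold change was -0.76 in chow (limma adjusted p = 0.0103), -1.03 in HFCF (adjusted p = 0.00518) and -0.89 over both (standard error 0.070, adjusted p = 1.76e-05). *Ywhaz*, a 14-3-3 protein of the kind that holds phosphorylated tristetraprolin, changed by -0.35, -0.48 and -0.41 in chow, HFCF and over both (limma adjusted p = 0.0219, 0.0175 and 0.00013), and the chow call was lost with total counts (0.0502). *Btrc*, a ubiquitin ligase subunit, and *Ywhae*, another 14-3-3 protein, were higher over both diets, by 0.23 and 0.21. With diet, 6 of the 31 were called in livers labelled WT (19.4%, beside 24.1% of all genes), led by *Jak3* (1.04), *Prkca* (0.64) and *Ywhah* (0.51), and 8 in those labelled HuRHep-/- (25.8%, beside 38.9%), led by *Cdk1* (1.31), *Jak3* (0.80) and *Ywhah* (0.75). All but 1 of these calls were higher in each genotype, and with total counts 14 and 17 were higher and 0 lower.

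Of 40 tested genes of other proteins that bind AU-rich or similar elements, 4 were called for genotype over both diets (10%, beside 17.4% of all genes), 1 higher and 3 lower, but 8 higher and 1 lower with total counts. *Zc3h12d*, an endonuclease of the Regnase family, was higher (0.61), and *Pcbp2*, a poly(C)-binding protein, *Syncrip* and *Larp4* were lower (-0.30, -0.25 and -0.23). *Pcbp2* was also called lower in chow (-0.38, limma adjusted p = 0.0184), where *Fubp3*, a relative of *Khsrp*, was higher (0.41, adjusted p = 0.0445), and 0 of 39 were called in HFCF by limma, with 7 at an unadjusted p under 0.05. With diet, 14 were lower and 2 higher in livers labelled WT (40% called, beside 24.1% of all genes), and 17 lower and 3 higher in those labelled HuRHep-/- (50% called, beside 38.9%), with medians of -0.20 in both. The direction turned with the scaling: with total counts the calls were 2 lower and 6 higher, and 2 lower and 10 higher. *Igf2bp2*, an mRNA-stabilising protein, was the only gene among the 3 largest changes in both genotypes (1.02 and 0.84). It was scarce, with group means between 0.53 and 1.47 CPM.

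Of 48 genes of deadenylation, decapping and the exosome, 3 were higher for genotype over both diets, *Dis3* (0.41), *Btg1* (0.40) and *Exosc8* (0.26), and *Lsm5* was lower (-0.29). That is 8.33% of the list, beside 17.4% of all genes, and with total counts 12 were higher and 0 lower. *Dis3* and *Exosc8* encode parts of the exosome, which degrades RNA from its 3′ end. In either diet alone 0 of the 48 were called by limma, with 10 in chow and 6 in HFCF at an unadjusted p under 0.05. With HFCF 6 were lower and 2 higher in livers labelled WT (16.7%, beside 24.1% of all genes), with *Btg2* (1.29), *Dcps* (-0.42) and *Cnot2* (-0.42) the largest, and 11 lower and 2 higher in those labelled HuRHep-/- (27.1%, beside 38.9%), with *Btg2* (1.99), *Lsm3* (0.76) and *Patl1* (-0.54). With total counts these splits became 2 lower and 5 higher, and 1 lower and 12 higher.

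Textbook targets of these proteins were examined as a list of cytokines, early response and cell cycle genes. Of 41 tested, 4 were higher for genotype over both diets and 1 was lower (12.2%, beside 17.4% of all genes), with a median of 0.20, and with total counts the split was the same. *Ccnd1* (1.18), *Socs3* (0.97), *Icam1* (0.77) and *Junb* (0.73) were the higher ones, and *Vegfa* (-0.36) was the lower one. In chow *Vegfa* was called (-0.33), and in HFCF *Cxcl10* (1.27), *Icam1* (0.98) and *Csf1* (0.58) were higher and *Dusp1*, a phosphatase of stress kinases, was lower (-0.56). With HFCF, 9 were higher and 1 lower in livers labelled WT (24.4%, beside 24.1% of all genes), and 19 higher and 3 lower in those labelled HuRHep-/- (53.7%, beside 38.9%). *Cdkn1a* (3.38 and 4.43), a cell cycle inhibitor, was among the 3 largest in both. With total counts the splits were 12 higher and 0 lower, and 24 higher and 1 lower. Some of these genes can be expressed by macrophages, and Kupffer and recruited macrophage markers given above were called higher as well. The part of these cells in the values of this list was not tested.

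The transcripts that the study itself treats as linked to HuR were the study's own choice. It tied them to HuR by sequence motifs and by work on binding and expression in a hepatoma cell line, not analysed here. The glutathione transferases among them were chosen after RNA-seq of these chow livers. The transcripts are therefore not independent evidence of direction. Of 7, *Nfe2l2*, the gene of the antioxidant regulator Nrf2, was higher over both diets (0.25, standard error 0.045, limma adjusted p = 0.00297), and *Mfn2*, a mitochondrial fusion protein, was lower (-0.23, adjusted p = 0.0345, and 0.194 with total counts). *Gstm6*, a glutathione transferase, was called in chow (-0.72, adjusted p = 0.0408) but not in HFCF (0.080, adjusted p = 0.685) or over both diets (-0.32, adjusted p = 0.175), and *Mfn2* was called in HFCF (-0.38, adjusted p = 0.0361). *Gsta4* (-0.71, adjusted p = 0.0692 in chow and -0.06, adjusted p = 0.881 in HFCF), *Dnm1l*, *Gclc* and *Gclm* were not called for genotype, except *Gclm*, which was called higher over both diets with total counts. Among liver targets of the tristetraprolin family, *Fgf21*, a liver hormone (0.30 over both diets, adjusted p = 0.428), and *Cyp7a1*, the rate-limiting enzyme of bile acid synthesis (-0.32, adjusted p = 0.564), were not called for genotype over both diets, and *Fgf21* was higher on HFCF in both labelled genotypes (1.84 and 1.54).

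The genes whose levels most resembled each of the 8 were ranked by Pearson r of log2 CPM over the 12 livers, among 9067 genes with a mean of at least 5 CPM. Genes were compared over livers that share diets and genotypes, so r describes these livers. *Elavl1* was closest to *Nectin3* (r = 0.978), *RP23-234F23.1* (0.966) and *Aig1* (0.966). *Nectin3* encodes a cell adhesion protein. A gene picked for its likeness over these livers must change much as *Elavl1* or *Tial1* does between the groups, so no test of such genes is given. *Tial1* was closest to *Proc* (0.981), the liver gene of the anticoagulant protein C, then to *Kat8* (0.968) and *Fip1l1* (0.964). *Tia1* was closest to *Fam126a* (0.962), *Cbl* (0.945) and *Fam124a* (0.939). For *Hnrnpd* the leading gene was *Umad1* (0.906), followed by *Slc6a6* and *Cpsf3*, for *Zfp36l1* it was *Bbc3* (0.903), followed by *1700017B05Rik* and *2410002F23Rik*, and for *Khsrp* it was *Gm7694* (0.897), followed by *Tead3* and *Cherp*. *Zfp36l2* was closest to *Phf20* (0.857), *Ier2* (0.832) and *Txnip* (0.803), and *Zfp36* to *Acadl* (0.833), *Alad* (0.830) and *Rpa3* (0.805).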

How the data were processed

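Total RNA of 12 livers was sequenced from stranded libraries, and per the labels all samples had an RNA integrity number above 6.0. The authors aligned reads in CLC Genomics Workbench to mouse GRCm38.p6 and deposited raw counts per gene in other than plain number format: each number is stored as characters, with a comma between digits in 21506 values for chow livers and 23123 for HFCF livers. Commas were removed, and 0 values were not whole. Because the values were text, limma 3.58.1 (R 4.3.3) on log2 CPM was used as fixed in the design, with TMM factors computed here, a pseudocount of 0.5, a variance trend and Benjamini-Hochberg adjustment. A gene was kept if at least 3 libraries reached the CPM that 10 reads give in a library of median size and its total was 15 or more. Genotype over both diets was fitted with diet as a term, and diet effects and the interaction with 4 group means over the 20093 genes in both tables. A permutation of 3 against 3 livers has a smallest two-sided exact p of 0.1, so none was run.

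The 8 genes, the gene lists and the alternatives were chosen with earlier results of these data known. Genes named were the 8, the 3 most alike to each by r, up to 4 called genes per list over both diets and up to 3 in each diet comparison by largest change, and all genes of the study's and the liver target lists. *Vegfa* over both diets and the list genes named within chow or HFCF alone were chosen after their values were seen. Lists were counted without a set test, and 1 list gene is not reported here. Exons, 3′ UTRs and sequences came from GENCODE vM21 (GRCm38). Fits were tested on simulated data with known changes. Python 3.11.15, pandas 2.3.3 and matplotlib 3.10.9 were used for the other steps. The alternatives tried were upper-quartile and RLE factors, no filter and a stricter one, a pseudocount of 2, voom weights, the replicate number as a block, a fold change of 1.5, a fit on all 12 libraries, other transcripts or words for AU-rich elements, and leaving out each library. Scaling by total counts, the limit on 3′ UTR length and the neighbours of *Elavl1* were added after seeing the data.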

Additional observations from a re-analysis of the deposited data

How the results depend on the processing

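Across the planned settings, leaving out libraries aside, 335 of 352 values of the 8 genes kept their direction and side of the threshold, as did 62 of 65 called values. The other called values were *Tia1* with diet in livers labelled WT without a filter (limma adjusted p = 0.0709), with voom weights (0.0559) and with the replicate number as a block (0.0575). *Tial1* was called in chow in the fit on all 12 libraries (adjusted p = 0.0306). With a fold change of at least 1.5 as a second condition, 0 of the 8 genes were called in chow, HFCF, both diets and either diet comparison. In chow 2 were called in the fit on all 12 libraries. With total counts 5 were called over both diets, where *Zfp36* (0.28), *Hnrnpd* (0.18) and *Khsrp* (0.21) joined *Elavl1* and *Tial1*, and 1 with diet in livers labelled HuRHep-/-. The gene lists other than cell markers had 19 calls over both diets, and 39 with total counts. The cause was not tested. Leaving out 1 library, the number of the 8 genes called was 0 to 1 in chow, 0 to 1 in HFCF and 1 to 2 with diet in livers labelled HuRHep-/-, and all genes called numbered 9 to 535 in chow and 28 to 1280 in HFCF. Elsewhere the block changed no call of the 8 genes, while all genes called went from 572 to 341 in chow and from 971 to 1341 in HFCF. Deviations of livers with the same number had r of -0.030, 0.11 and -0.0033 in chow and 0.088, 0.19 and 0.087 in HFCF, so the numbers were not taken to pair livers.

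Log2 fold changes that turned sign belonged to uncalled values. With total counts they were 0.069 for *Zfp36l1* in chow, 0.064 for *Zfp36l2* over both diets, 0.15 for *Tia1* and 0.14 for *Hnrnpd* in HFCF, 0.11 for *Zfp36l1* and 0.12 for *Hnrnpd* with diet in livers labelled WT, and 0.22 for *Zfp36l2*, 0.054 for *Hnrnpd* and 0.19 for *Khsrp* in those labelled HuRHep-/-. They were also 0.044 for *Elavl1* and 0.0027 for *Khsrp* in the interaction, 0.027, 0.035 and 0.018 for *Dnm1l* over both diets, in chow and in HFCF, 0.078 and 0.017 for *Gclc* over both and in HFCF, and 0.092 and 0.097 for *Gsta4* and *Gclm* in HFCF. With upper-quartile factors they were 0.048 for *Tia1* and 0.045 for *Hnrnpd* in HFCF, 0.069 for *Zfp36l2* and 0.044 for *Khsrp* with diet in livers labelled HuRHep-/-, and 0.026 for *Elavl1* in the interaction. *Tia1* in HFCF was 0.0016 with RLE factors. With 10 counts in every library, values were 0.011 for *Tia1* and 0.0081 for *Hnrnpd* in HFCF, 0.026 for *Zfp36l2* and 0.00088 for *Khsrp* with diet in livers labelled HuRHep-/-, and 0.012 for *Elavl1* in the interaction. In the fit on all 12 libraries *Tia1* was 0.012 and *Hnrnpd* 0.0091 in HFCF.

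Leaving out 1 library at a time, log2 fold changes that turned sign ran in chow from -0.26 to 0.11 for *Zfp36l1*. They ran in HFCF from -0.060 to 0.17 for *Zfp36*, -0.10 to 0.33 for *Zfp36l1*, -0.073 to 0.30 for *Zfp36l2*, -0.050 to 0.092 for *Hnrnpd*, -0.010 to 0.13 for *Khsrp* and -0.090 to 0.049 for *Tia1*. They ran over both diets from -0.069 to 0.14 for *Zfp36l1* and -0.14 to 0.020 for *Zfp36l2*. They ran with diet in livers labelled WT from -0.30 to 0.060 for *Zfp36l1*, -0.16 to 0.026 for *Hnrnpd* and -0.031 to 0.075 for *Khsrp*. They ran with diet in livers labelled HuRHep-/- from -0.082 to 0.15 for *Zfp36*, -0.15 to 0.28 for *Zfp36l1*, -0.16 to 0.18 for *Zfp36l2* and -0.11 to 0.029 for *Khsrp*. They ran in the interaction from -0.036 to 0.052 for *Elavl1*, -0.076 to 0.36 for *Zfp36l1* and -0.12 to 0.019 for *Khsrp*.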

Other observations

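The genes around *Elavl1* were looked at after its values had been seen. Within 250 kilobases 14 other genes were listed and 10 tested, and 4 of them were called for genotype over both diets, beside 17.4% of all genes tested. *Evi5l* (0.33, limma adjusted p = 0.0477) and *Ctxn1* (0.84, adjusted p = 0.0322) were higher in livers labelled HuRHep-/-. *Ctxn1* was scarce, with group means between 0.49 and 1.21 CPM. *Timm44*, a mitochondrial import protein (-0.19, adjusted p = 0.0222), and *Ccl25*, a chemokine gene (-0.89, standard error 0.157, adjusted p = 0.00295), were lower. *Ccl25* lies on the opposite strand and overlaps the start of *Elavl1* by 204 bases. In chow its raw counts were 189, 144 and 157 under the WT label and 118, 127 and 135 under the HuRHep-/- label, and 194, 123 and 164 against 82, 71 and 66 on HFCF. Every liver labelled HuRHep-/- lay below every liver labelled WT on the same diet, with a log2 fold change of -0.48 in chow (limma adjusted p = 0.105) and -1.31 in HFCF (adjusted p = 0.0171).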
